A study of Mus musculus with 2 samples.

Results

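The type I interferon response genes were examined in healed large wounds of mouse skin, with and without an agonist of Toll-like receptor 9 (TLR9). The members were chosen by name, as a list of 32 genes that cells switch on after type I interferon, and 31 of them were found among the 27998 genes of the deposited count matrices. Mx2 is not analysed here. The study asked how TLR9 activation shaped the cells of a large wound, and single-cell RNA was measured in 2 libraries, 1 per group. Both libraries came from wild type C57BL/6J male mice aged 6 to 8 weeks, whose circular dorsal wound was 1.8 cm across. By the methods of the study the wounds of WT_LW received PBS. Those of TLR9agonist_LW received ODN2395, a synthetic CpG oligonucleotide that activates TLR9, each at days 0, 3 and 6. A figure legend on healing speed in the same study instead names a control oligonucleotide for WT_LW. The wound centre was collected 2 days after the scab came off, and the cells of several mice were pooled before each library, so that no replicate error can be given.

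The deposited matrices held 12800 cells and 99374045 UMIs (unique molecular identifiers, each standing for 1 captured RNA molecule) in WT_LW, and 13751 cells and 132339022 UMIs in TLR9agonist_LW. A filter on depth and mitochondrial RNA left 11443 and 13206 cells, with medians of 5520.0 and 6310.5 UMIs. The libraries shared 47 cell barcodes. Cells were sorted by marker genes into 12 classes, and macrophages, dendritic cells and T cells further into subsets, which placed 81.3% of the WT_LW cells and 82.9% of the TLR9agonist_LW cells. Levels are in CPM, which is UMIs per 1000000 UMIs of the same cells. A log2 ratio is TLR9agonist_LW over WT_LW, with a 95% interval that covers counting error only, and neither differences between mice nor differences between dissociations. A member was counted in a class when it had at least 50 UMIs there over both libraries.

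Type I interferons are a family of secreted proteins, interferon beta and the interferon alphas among them, that bind one receptor on nearly every cell. The receptor kinases activate transcription factors, STAT2 and IRF9 among them, that bind the interferon-stimulated response element in the promoters of a large set of genes. Their products block viral entry, translation and replication, sense foreign nucleic acid, or raise and restrain the response itself. Endosomal receptors such as TLR9 lead to type I interferon through IRF7, above all in plasmacytoid dendritic cells.

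The response element was looked for in the 250 bases before the transcription start, as GAAA, any 2 bases and GAAA again, or its reverse complement, with overlapping matches included. Of the 31 members, 23 had a promoter in the RefSeq table of the GRCm38.p6 build, and 9 of the 23 (39.1%) held the element, against 3.46% of 27025 genes with a promoter. Promoters of Mx1, Oas2, Usp18, Ly6e, Rtp4, Dhx58, Zbp1 and Parp14 were not analysed here. Isg15, Ifit3 and Rsad2 are printed here because they had the 3 highest log2 ratios in fibroblasts, and Irf7 because it was at least 2-fold higher in 3 classes and holds no such match. Capitals mark the element. These are the 250 bases at chr4:156200819-156201068 (minus strand), chr19:34583279-34583528 (plus strand), chr12:26456453-26456702 (minus strand) and chr7:141266425-141266674 (minus strand) in that order, written 5′ to 3′ on the strand of the gene. The submitters' notes name the mm9 build for their own processing, so these positions are those of the RefSeq table and not of the count files.
Isg15: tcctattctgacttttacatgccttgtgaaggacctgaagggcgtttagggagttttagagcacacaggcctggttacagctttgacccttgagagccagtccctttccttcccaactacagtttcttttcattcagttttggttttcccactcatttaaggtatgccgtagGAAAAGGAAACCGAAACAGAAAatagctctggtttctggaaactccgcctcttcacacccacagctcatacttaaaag
Ifit3: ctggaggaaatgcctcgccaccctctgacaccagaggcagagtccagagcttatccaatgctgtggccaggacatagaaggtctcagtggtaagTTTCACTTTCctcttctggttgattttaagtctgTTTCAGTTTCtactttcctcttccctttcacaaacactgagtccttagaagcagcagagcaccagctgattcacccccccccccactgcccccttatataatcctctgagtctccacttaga
Rsad2: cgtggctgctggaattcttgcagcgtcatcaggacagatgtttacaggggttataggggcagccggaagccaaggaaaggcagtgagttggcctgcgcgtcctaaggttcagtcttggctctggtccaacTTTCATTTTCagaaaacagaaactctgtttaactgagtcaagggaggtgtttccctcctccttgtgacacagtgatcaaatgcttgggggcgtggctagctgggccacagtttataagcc
Irf7: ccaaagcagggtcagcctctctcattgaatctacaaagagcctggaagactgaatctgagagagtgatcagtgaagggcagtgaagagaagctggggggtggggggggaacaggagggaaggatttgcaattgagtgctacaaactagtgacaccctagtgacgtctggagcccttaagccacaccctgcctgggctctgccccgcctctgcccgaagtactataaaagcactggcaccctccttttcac
Isg15 had 3 overlapping matches, the closest ending 57 bases before the start, at position -57. The closest of the 2 matches of Ifit3 ended at position -113, and the single match of Rsad2 at position -111. A match in these letters is a description of the sequence and no evidence of binding.

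Over all kept cells the members were, on the whole, not higher in TLR9agonist_LW. The median log2 ratio of the 31 members was -0.49, beside -0.39 for the median gene with at least 200 UMIs, so that relative to that gene the median was -0.095. Above 0 were 9 of the 31 (22.8% of genes were). None of the 31 was at least 2-fold higher (3.87% of 15640 genes were), and 2 were at least 2-fold lower (11.8% of genes were).
The ubiquitin-like modifier Isg15 had 72.8 CPM in WT_LW and 114 in TLR9agonist_LW, the highest ratio of all members (0.64, 0.60 to 0.68). Its protease Usp18 had 6.57 and 5.41, and the ligase-like Herc6 had 21.3 and 12.7.
Among the antiviral effectors, Ifit1, Ifit2 and Ifit3, neighbours on chromosome 19, had 15.9, 10.8 and 11.3 CPM in WT_LW and 16.9, 7.68 and 15.7 in TLR9agonist_LW. The 2′-5′ oligoadenylate synthetase genes Oas1a, Oas2 and Oas3 had 6.72, 3.69 and 5.88 in WT_LW, and 5.59, 2.51 and 2.75 in TLR9agonist_LW. Their relatives Oasl1 and Oasl2 had 5.26 and 23.1 in WT_LW, and 6.72 and 22.6 in TLR9agonist_LW. Mx1, which C57BL/6 mice carry as a defective allele, had 3.16 and 2.24. Rsad2, which encodes viperin, had 17.01 and 12.5, its neighbour on chromosome 12 Cmpk2 had 6.56 and 3.24, and the RNA-activated kinase Eif2ak2 had 26.9 and 13.9. The membrane proteins Ifitm3, which blocks viral entry, and Bst2, which tethers virions, had 743 and 193 in WT_LW, and 967 and 216 in TLR9agonist_LW.
The factors of the response were Irf7 (23.6 in WT_LW, 27.98 in TLR9agonist_LW), Irf9 (33.6 and 27.6) and Stat2 (26.4 and 16.9). The sensors were Ddx58, which encodes RIG-I (26.8 and 18.3), Ifih1, which encodes MDA5 (21.2 and 14.8), Dhx58 (5.81 and 4.03) and the Z-form nucleic acid sensor Zbp1 (32.6 and 28.1). The other induced genes were Ly6e (542 and 340), Parp14 (58.1 and 37.3), Trim30a (38.8 and 22.8), Ifi35 (35.5 and 23.2), Ifi44 (11.7 and 7.40), Xaf1 (29.2 and 30.8) and Rtp4 (19.3 and 23.0). The whole-tissue values mix classes in different shares, since fibroblasts were 19.2% of the UMIs in WT_LW and 29.6% in TLR9agonist_LW, and the classes below differed in direction.

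The members differed widely in level between cell types, in both libraries. With Ifitm3, Ly6e and Bst2 left out, because they would carry most of any sum, the other 28 members came to 1939 CPM in blood endothelial cells of WT_LW and 1849 in those of TLR9agonist_LW. Keratinocytes were lowest, at 181 and 110. Fibroblasts (321 and 589) were below T and NK cells (499 and 321) in WT_LW and above them in TLR9agonist_LW. Macrophages and monocytes had 904 and 1273, dendritic cells 534 and 408, Schwann cells 662 and 815, and pericytes with vascular smooth muscle 552 and 673. Among the small classes, neutrophils had 2009 and 1198, above blood endothelial cells in WT_LW, and mast cells 581 and 1120. Lymphatic endothelial cells had 924 and 733, and plasmacytoid dendritic cells 1150 and 629. Fibroblasts supplied 10.3% of all UMIs of these 28 genes in WT_LW and 33.1% in TLR9agonist_LW, while blood endothelial cells supplied 17.9% and 12.2%.

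**Figure D1:**
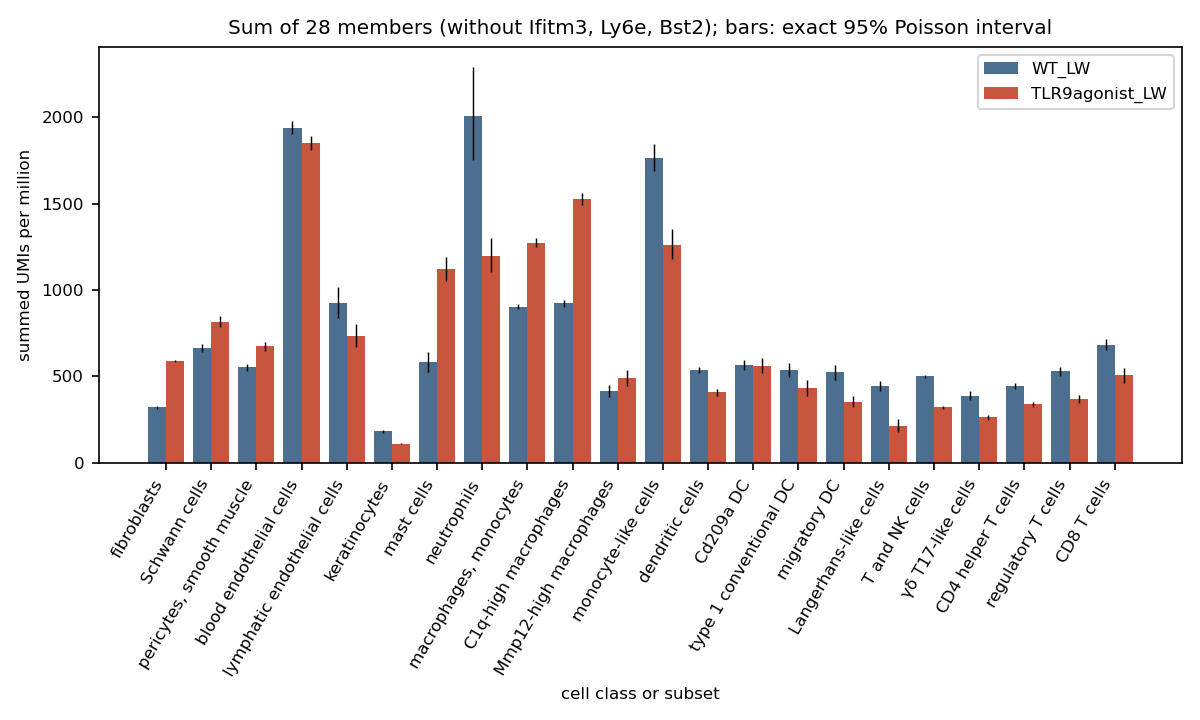
Summed level of 28 members (y axis, CPM; Ifitm3, Ly6e and Bst2 left out) in each cell class and subset (x axis), with WT_LW in blue, TLR9agonist_LW in red and exact 95% Poisson intervals that cover counting error only. Fibroblasts (321 and 589) and C1q-high macrophages (921 and 1528) stood higher in TLR9agonist_LW, and T and NK cells (499 and 321) and keratinocytes (181 and 110) lower.

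Fibroblasts held the largest number of members at least 2-fold higher among the classes and subsets. In the 1146 fibroblasts of WT_LW and the 2818 of TLR9agonist_LW, 30 members were counted. Of these, 28 had a log2 ratio above 0, while 27.7% of 13002 genes had one. The whole interval lay above 0 for 22, and the share of all genes with such an interval was not computed. The median was 0.64, beside -0.27 for the median gene. At least 2-fold higher were 11 of the 30 (4.15% of all genes were), and none was at least 2-fold lower (6.18% of genes were).
For Isg15 815 UMIs were counted in WT_LW against 5673, a level of 44.0 against 146 CPM (1.73, 1.63 to 1.84). Ifit3 went from 7.02 CPM in WT_LW to 22.8 in TLR9agonist_LW (1.70, 1.43 to 1.98), and Rsad2 from 2.48 to 8.05 (1.70, 1.25 to 2.18). The richest fibroblast of TLR9agonist_LW held 18.6% of the Rsad2 UMIs there, but 1.15% of those of Isg15 and 3.40% of those of Ifit3, so the last 2 were spread over many cells. Isg15 was found in 240 of 1146 fibroblasts of WT_LW and in 1346 of 2818 of TLR9agonist_LW.
All 4 nucleic acid sensors stood higher in TLR9agonist_LW: Zbp1 at 36.5 against 11.4 (1.68, 1.47 to 1.90), Dhx58 at 4.26 against 1.78, Ifih1 at 16.6 against 11.8 and Ddx58 at 24.6 against 21.1. Among the factors, Irf7 stood at 22.1 against 9.93 (1.16, 0.92 to 1.39), and Stat2 (0.55) and Irf9 (0.36) were nearer to their WT_LW values. Bst2 stood at 274 against 132, Rtp4 at 27.0 against 11.1 and Xaf1, an apoptosis-linked gene, at 48.1 against 19.9. The exceptions were Ly6e (-0.15, -0.20 to -0.10) and Eif2ak2 (-0.54, -0.70 to -0.39), and Ifi35 was next to them (0.04, -0.13 to 0.22). Ly6e turned to 0.12 once the shift of the median gene was taken off.

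The fibroblast difference was present in each of the 3 fibroblast clusters that held cells of both libraries, clusters made without the members. In cluster 8, led by Clec3b, Mgp and Ifi205, the sum of the 28 members was 329 CPM in 474 cells of WT_LW and 679 in 659 cells of TLR9agonist_LW, with 27 of 29 counted members above 0 (25.7% of genes there were). In cluster 0, led by Igfbp2, Ppp1r14a and Matn4, it was 369 in 97 cells and 543 in 1832 cells, with 18 of 24 above 0 (35% of genes there were). In cluster 20, with dividing-cell genes such as Ube2c and Top2a among its leading genes, it was 281 in 331 cells and 512 in 56 cells, with 15 of 19 above 0 (43.7% of genes there were). The medians of the 3 clusters were 1.0, 0.45 and 0.68, beside -0.33, -0.17 and -0.11 for their median genes. Summed macrophage markers in fibroblasts were lower in TLR9agonist_LW (472 and 262 CPM, in WT_LW and TLR9agonist_LW), blood endothelial markers were 53.2 and 67.8, and none of the 12 macrophage or 10 blood endothelial markers was at 0 in either library. Keratinocyte markers were 431 and 1223, and the part of such free or carried-over RNA in the result was not tested.

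**Figure D2:**
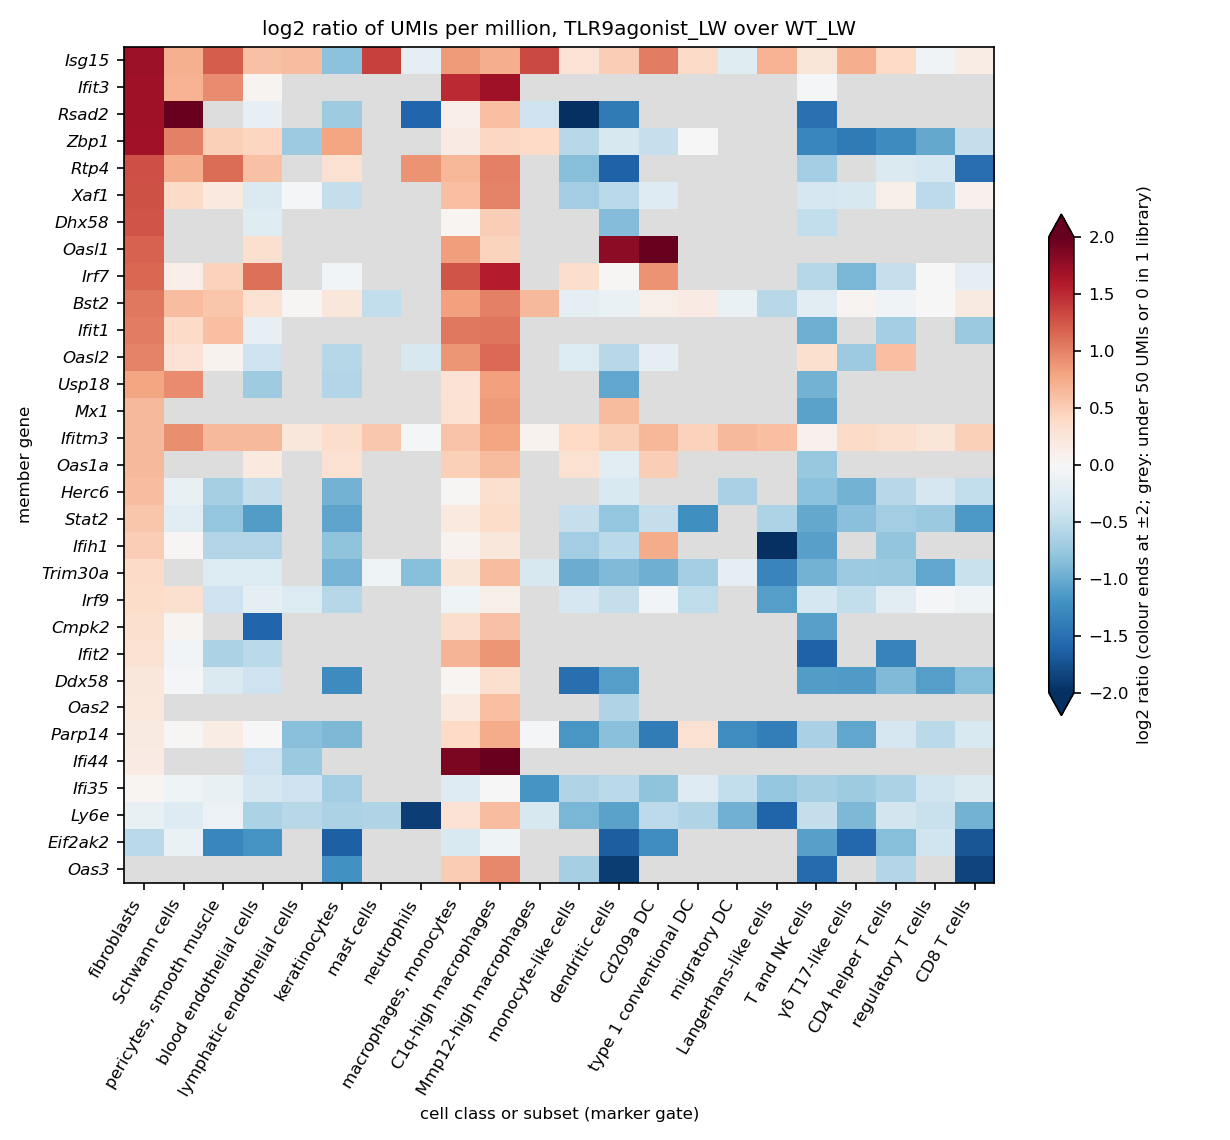
Log2 ratio of each member (rows, in the order of the ratio in fibroblasts) in each cell class and subset (columns), with red for higher and blue for lower in TLR9agonist_LW and colours that end at 2 on either side. Grey marks members under 50 UMIs or at 0 in 1 library. Red fills the columns of fibroblasts (28 of 30 counted members above 0) and C1q-high macrophages (29 of 31), blue that of T and NK cells (3 of 28 above 0), and Isg15 and Ifitm3 are red in most columns.

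Macrophages and monocytes had 28 of 31 members above 0, where 29.6% of 10398 genes were, with a median of 0.36 beside -0.21 for the median gene. At least 2-fold higher were 4 members (3.27% of genes were). These were Ifi44, at 5.05 CPM in WT_LW and 18.6 in TLR9agonist_LW (1.88, 1.45 to 2.32), Ifit3 at 15.4 and 43.1 (1.49, 1.23 to 1.75), Irf7 at 51.1 and 121.7 (1.25, 1.11 to 1.40) and Ifit1 at 13.5 and 28.2 (1.06, 0.77 to 1.36). The lowest were Irf9 (-0.08, -0.30 to 0.13), Ifi35 (-0.26, -0.49 to -0.03) and Eif2ak2 (-0.30, -0.57 to -0.04), which turned to 0.25 with cells thinned to 1500 UMIs. None was at least 2-fold lower (3.41% of genes were).

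The direction was not shared by all macrophages. C1q-high macrophages, a resident-type state with complement C1q and Mrc1, numbered 898 and 651 cells and had 29 of 31 members above 0 (35.5% of 9727 genes were), with a median of 0.64. At least 2-fold higher were 7 members (3.35% of genes were) and none was 2-fold lower (3.69% were). The whole interval lay above 0 for 27, again without a computed share of all genes. For Ifi44 51 UMIs were counted in WT_LW against 140, a level of 5.85 against 27.4 (2.23, 1.76 to 2.72). Ifit3 stood at 19.5 and 63.3 (1.70, 1.43 to 1.98), and Irf7, the factor through which TLR9 drives interferon genes, at 48.4 and 144 (1.58, 1.40 to 1.75). Isg15, the leader in fibroblasts, was 15th of the 31 here (104 and 172, a ratio of 0.73). Irf9 (0.12), Ifi35 (-0.01) and Eif2ak2 (-0.08) were the lowest, and their intervals held 0.
The gated macrophages fell mainly in 2 clusters. In cluster 12, led by Ccl8, Ccl12 and Fcrls, the 28 members summed to 1133 CPM in 397 cells of WT_LW and 1713 in 470 cells of TLR9agonist_LW, with 29 of 31 members above 0 (36.9% of genes there were) and a median of 0.53, beside -0.12 for the median gene. In cluster 4, led by Cxcl3, Inhba and Mmp12, the sum was 821 in 797 cells and 853 in 331 cells, while 11 of 30 members were above 0 (21.3% of genes there were) and the median was -0.52, beside -0.33 for the median gene. Among C1q-high cells, 28 of 31 were above 0 in cluster 12 (36.7% of genes there were), where the median was 0.52 over 394 and 466 cells. In cluster 4 (400 and 99 cells) 10 of 25 were above 0 (24.3% of genes there were), and the sum was 774 and 971 CPM. The median there was -0.08, which is 0.20 relative to the median gene. Cluster 12 thus held 394 of 898 C1q-high cells in WT_LW and 466 of 651 in TLR9agonist_LW, so the value for the whole subset mixes the 2 clusters in unequal shares.
Monocyte-like cells, with Ly6c2 and Plac8, had the highest levels among the macrophage subsets of WT_LW, and theirs were lower in TLR9agonist_LW: the 28 members came to 1766 CPM in 143 cells and 1261 in 79 cells. Rsad2 had 97 UMIs in WT_LW and 9 in TLR9agonist_LW (-2.71, -3.88 to -1.73), Ddx58 47 and 10 (-1.52, -2.67 to -0.51), and Parp14 110 and 30 (-1.16, -1.79 to -0.56), and these 3 were the members at least 2-fold lower of 19 counted (10.4% of 3861 genes were). Ifitm3 (0.40), Irf7 (0.35) and Oas1a (0.31) were the highest. In Mmp12-high macrophages (100 and 66 cells) 9 members were counted, of which Isg15, at 52.4 and 131 (1.32, 0.89 to 1.76), was the 1 at least 2-fold higher (3.98% of genes were) and Ifi35 (-1.18, -2.21 to -0.26) the 1 at least 2-fold lower (5.55% were).

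**Figure D3:**
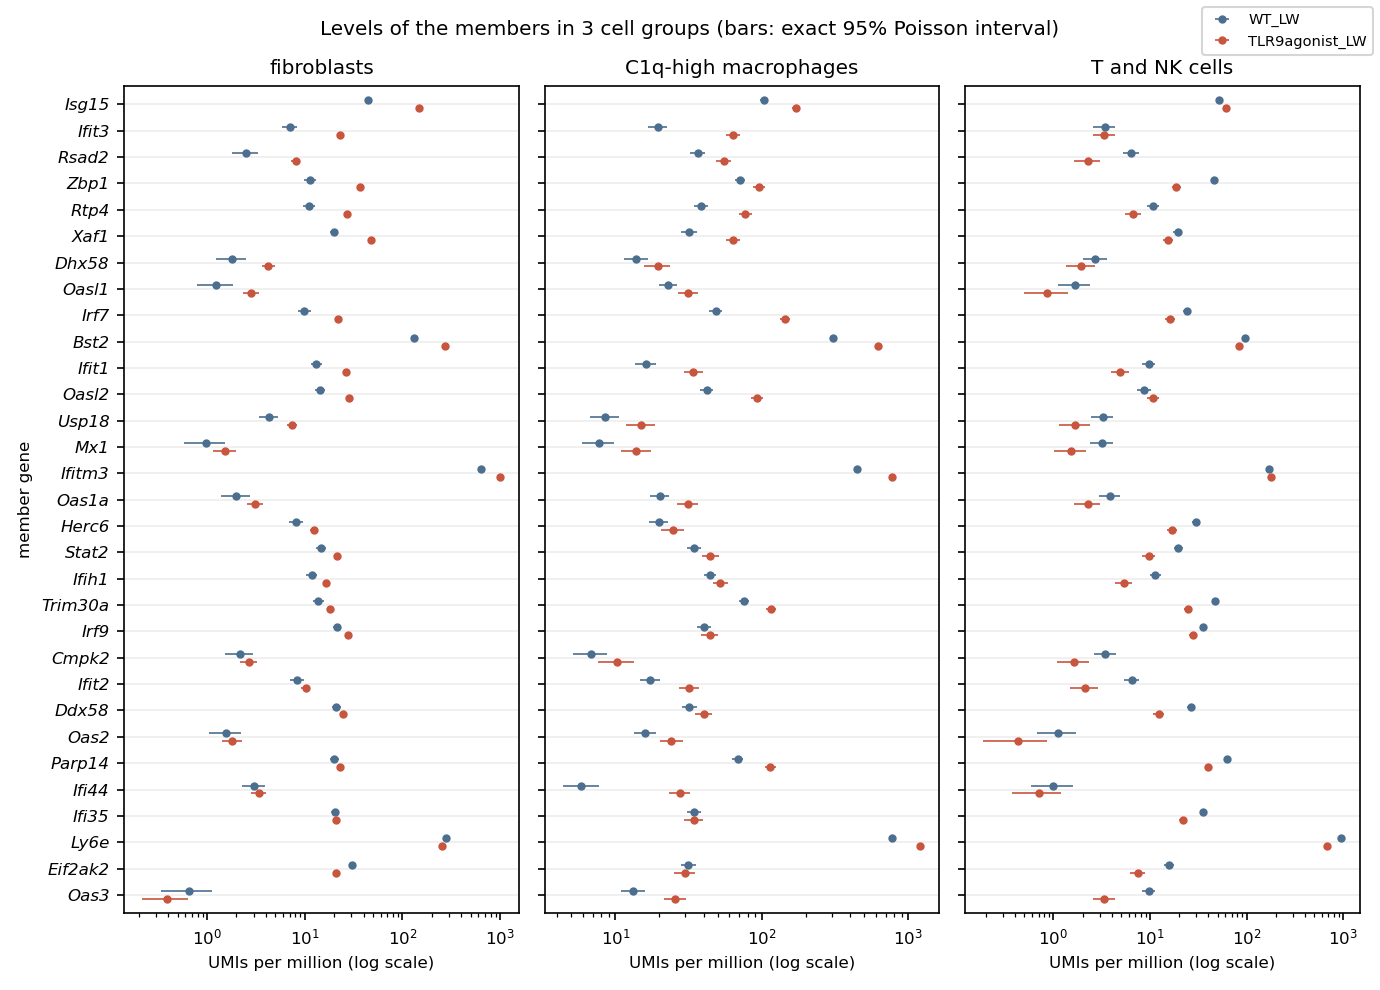
Level of each member (x axis, CPM, log scale) in fibroblasts, C1q-high macrophages and T and NK cells, with WT_LW in blue, TLR9agonist_LW in red and exact 95% Poisson intervals that cover counting error only. Most red points lie to the right of the blue in fibroblasts (Isg15 at 44.0 and 146) and C1q-high macrophages (Irf7 at 48.4 and 144), and to the left in T and NK cells (Zbp1 at 46.1 and 18.7).

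T and NK cells went the other way. Of 28 members counted in 3489 and 3624 cells, 3 had a ratio above 0 (29.7% of 11745 genes did), the median was -0.79 beside -0.27 for the median gene, and 10 were at least 2-fold lower (11.3% of genes were). None was at least 2-fold higher (4.43% of genes were). Relative to the median gene, 4 were at least 2-fold lower (5.15% of genes were). The lowest were Ifit2, at 6.43 CPM in WT_LW and 2.10 in TLR9agonist_LW (-1.61, -2.18 to -1.08), Oas3 at 9.70 and 3.34 (-1.54, -1.98 to -1.11) and Rsad2 at 6.38 and 2.26 (-1.49, -2.04 to -0.97). The sensors Zbp1 (832 and 347 UMIs, 46.1 and 18.7 CPM, -1.30), Ddx58 (-1.11) and Ifih1 (-1.09) were lower as well. The 3 above 0 were Oasl2 (0.32, 0.01 to 0.63, but -0.23 with cells thinned to 1500 UMIs), Isg15 (51.4 and 60.5, 0.24, 0.11 to 0.36) and Ifitm3 (0.08, 0.01 to 0.16).
Most T and NK cells lay in clusters that were nearly all of 1 library, such as cluster 1 (1914 cells of WT_LW and 5 of TLR9agonist_LW), cluster 2 (4 and 1908), cluster 3 (20 and 1651), cluster 15 (688 and 49) and cluster 18 (540 and 0), so most of the class could not be compared within a cluster. In the 2 shared clusters the differences were smaller. The median was -0.48 in cluster 17 (358 and 206 gated cells), where 3 of 15 members were above 0 (37% of genes there were) and the sum of the 28 members was 693 and 451 CPM. It was -0.29 in cluster 19 (247 and 146 gated cells), where 6 of 15 were above 0 (40% of genes there were) and the sum was 334 and 301 CPM.
The class held more γδ T17-like cells in TLR9agonist_LW (1252) than in WT_LW (430), so the subsets were read one by one. The median was -0.79 in γδ T17-like cells over 16 members, -0.56 in CD4 helper T cells over 21, -0.45 in CD8 T cells over 18 and -0.40 in regulatory T cells over 16. At least 2-fold lower were 4 members in γδ T17-like cells (17.5% of genes were), 2 in CD4 helper T cells (6.91%), 4 in CD8 T cells (7.17%) and 3 in regulatory T cells (6.79%). Zbp1 was lower in each: 29.9 and 11.3 in γδ T17-like cells, 37.9 and 15.8 in CD4 helper T cells, 64.8 and 32 in regulatory T cells and 59.5 and 42.9 in CD8 T cells, where its interval held 0 (-0.99 to 0.02). Isg15 stood higher in γδ T17-like cells (38.5 and 64.0, 0.73, 0.37 to 1.11) and CD4 helper T cells (49.0 and 64.3, 0.39, 0.18 to 0.60), and its interval held 0 in regulatory and CD8 T cells. In the 52 and 23 NK-like cells 2 members reached 50 UMIs.
Ifng, the type II interferon that T and NK cells make and that shares targets with type I interferon, was also lower in T and NK cells, at 179 and 84.4 CPM (-1.09). Fos (621 and 216) and Fosb (744 and 141), early genes that dissociation raises, were lower there too, while macrophage markers were 614 and 268. Whether these have a part in the T cell values was not tested.

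Dendritic cells had 5 of 26 members above 0 (25.2% of 9040 genes were), a median of -0.55 beside -0.26 for the median gene, 7 members at least 2-fold lower (10.7% of genes were) and 1 at least 2-fold higher (2.47% of genes were). That 1 was Oasl1, at 9.25 and 31.9 (1.79, 1.34 to 2.24), but 54 of its 125 UMIs in TLR9agonist_LW and 26 of its 64 in WT_LW came from a single cell each. Mx1 (0.63) and Isg15 (0.49) followed. In the 2 clusters shared by both libraries the medians were -0.86 over 23 members (368 and 209 cells) and -0.21 over 7 (88 and 88 cells). The lowest were Oas3, at 11.4 and 3.06 (-1.90, -2.91 to -1.01), Eif2ak2 (-1.65, -2.33 to -1.03) and Rtp4 (-1.62, -2.64 to -0.72).
By subset, Cd209a dendritic cells (219 and 96 cells) had a median of -0.20 and the same sum of the 28 members within counting error (565 and 559 CPM), with Isg15 at 49.5 and 101 (1.03), Irf7 at 21.2 and 39.5 (0.90) and Oasl1 at 6.04 and 72.2, of which the single cell above held 62.8%. Isg15 and Oasl1 were the 2 at least 2-fold higher (3.71% of genes were). Parp14 (-1.40), Eif2ak2 (-1.25) and Trim30a (-0.98) were lowest there, the first 2 at least 2-fold lower (13.3% of genes were). Type 1 conventional dendritic cells (82 and 58 cells) had a median of -0.13 over 10 members, and migratory dendritic cells (98 and 106 cells) -0.36 over 8.
Langerhans-like cells, the Cd207-bearing dendritic cells of the epidermis, had the lowest median of the dendritic subsets, -0.93 over 10 members, of which 5 were at least 2-fold lower (20.2% of 4892 genes were). The 28 members came to 444 CPM in 136 cells of WT_LW and 211 in 50 cells of TLR9agonist_LW. Ifih1 had 52 and 3 UMIs (-2.54, -4.87 to -0.92), Ly6e stood at 539.9 and 177 (-1.61, -1.91 to -1.32) and Parp14 at 29.2 and 11.3 (-1.38, -2.76 to -0.23). Isg15 (0.69), Ifitm3 (0.59) and Bst2 (-0.56) were the highest. Fos (1992 and 546) and Fosb (2133 and 453) were lower in these cells too, with log2 ratios of -1.87 and -2.24, and their part was not tested.

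Keratinocytes had 5 of 22 members above 0 (19.1% of 11378 genes were) and a median of -0.66, which was -0.23 relative to the median gene. In cluster 6 (305 and 860 gated cells) the median was -0.54, with 4 of 18 above 0 (24.5% of genes there were), and in cluster 14 (230 and 339 gated cells) it was -0.25, with 6 of 14 above 0 (25.7% of genes there were). The median genes of the clusters were at -0.34 and -0.24. At least 2-fold lower were 4 members (17% of genes were), and none was at least 2-fold higher (2.98% of genes were). The 4 were led by Eif2ak2, at 17.2 and 5.58 (-1.63, -1.94 to -1.32), Ddx58, at 8.52 and 3.56 (-1.26, -1.68 to -0.83) and Oas3, at 2.23 and 0.957 (-1.22, -2.06 to -0.36, but 0.055 with equal weight per cell). Isg15 was lower in this class, at 26.7 and 15.2 (-0.82, -1.03 to -0.59). With plasmacytoid dendritic cells left out, this was the 1 class of 11 where its whole interval was below 0. Zbp1 (0.80, 0.13 to 1.53), Ifitm3 (0.35, 0.30 to 0.40) and Oas1a (0.31, -0.36 to 1.02) were the highest.

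With plasmacytoid dendritic cells left out, blood endothelial cells carried the highest levels of 18 members among the classes of WT_LW. Ifitm3 (2969), Ly6e (1450.5), Bst2 (775), Parp14 (234) and Ifi44 (136) were among the 18. The ratios in blood endothelial cells were mixed, with 10 of 28 above 0 (21.9% of 9804 genes were). The median was -0.26, which turned to 0.11 relative to the median gene. Irf7 was the 1 member at least 2-fold higher (3.52% of genes were), at 64.2 and 137 (1.10, 0.90 to 1.29), and Ifitm3 (2969 and 4633, 0.64) and Isg15 (205 and 309, 0.59) came next. Cmpk2, at 38.3 and 12.7 (-1.59, -2.04 to -1.16), Eif2ak2, at 80.1 and 35.5 (-1.17, -1.44 to -0.91) and Stat2, at 75.4 and 34.6 (-1.12, -1.40 to -0.85), were at least 2-fold lower (16.0% of genes were).
Pericytes and vascular smooth muscle had 11 of 21 members above 0 (21.9% of 9731 genes were) and a median of 0.07, or 0.43 relative to the median gene. Isg15, at 92.4 and 214 (1.21, 1.05 to 1.38), and Rtp4, at 18.98 and 41.2 (1.12, 0.74 to 1.496), were at least 2-fold higher (3.22% of genes were), and Ifit3 came next (0.95, 0.43 to 1.47). Eif2ak2 (-1.30, -1.83 to -0.80) was the 1 at least 2-fold lower (12% of genes were), and Stat2 (-0.77) and Herc6 (-0.66) followed.
Schwann cells, the glia of skin nerves, had 16 of 23 members above 0 (31.2% of 10040 genes were) and a median of 0.29, and 2 were at least 2-fold higher (2.89% of genes were) and none 2-fold lower (2.95% were). Rsad2 had the largest ratio, with 7 UMIs in WT_LW and 58 in TLR9agonist_LW (3.77, 2.64 to 5.15), but 46 of the 58 were in a single cell. Zbp1 was the other, at 18.4 and 37.0 (1.01, 0.61 to 1.41), and Usp18 came next (0.95, 0.20 to 1.70). Ifitm3 stood at 692 and 1319. The lowest were Ly6e (-0.25), Stat2 (-0.21) and Herc6 (-0.15), whose intervals held 0.

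The remaining classes were small. In mast cells (178 and 427 cells) 5 members were counted, with Isg15 the 1 at least 2-fold higher (12.2% of genes were), at 322 and 835 (1.37, 1.15 to 1.60), Ifitm3 at 157 and 229 (0.54) and Trim30a (-0.09), Bst2 (-0.50) and Ly6e (-0.61) below. The richest mast cell of WT_LW held 26.8% of the Isg15 UMIs there, and that of TLR9agonist_LW 2.89%. In neutrophils (41 and 187 cells) 7 were counted and 1, Rtp4 (0.89, -0.33 to 2.41), was above 0. Ly6e (434 and 118, -1.88), Rsad2 (199 and 66.6, -1.58) and Trim30a (-0.85) were lowest, the first 2 at least 2-fold lower (13.1% of genes were), and Ifitm3 (-0.02) and Isg15 (534 and 468, -0.19) had intervals that held 0. In lymphatic endothelial cells (63 and 58 cells) Isg15 (0.61), Ifitm3 (0.23) and Bst2 (0.03) were highest of 10 counted, and Parp14 (-0.83), Ifi44 (-0.75) and Zbp1 (-0.73) lowest. Plasmacytoid dendritic cells, with 13 and 11 cells, had 3 members counted and allow no reading.

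Read by gene, the members did not move as a block. Plasmacytoid dendritic cells were left out of the counts that follow. Isg15 was above 0 with its interval in 9 of 11 classes, and Ifitm3 in 10 of 11. Eif2ak2 was counted in 8 classes, below 0 in each (macrophages turned with thinning, as above) and with its whole interval below 0 in 7. Ly6e had its interval below 0 in 8 of 11 classes. Stat2 had its interval below 0 in 5 of 8 classes and above 0 in 1, and Irf7 above 0 in 4 of 8 and below 0 in 1. The median gene itself lay below 0 in most of these classes. Relative to the median gene of the class, Isg15 was above 0 in 9 of 11 classes, Ifitm3 in 10 and Ly6e in 3. On that scale Irf7 was above 0 in 7 of 8, Stat2 in 2 of 8 and Eif2ak2 in 1 of 8. All of these counts are over classes of the same 2 libraries, which are not replicates.

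The share of single cells with several members was also compared. Cells were drawn down to 1500 UMIs each, leaving out shallower ones, and the 28 members without Ifitm3, Ly6e and Bst2 were used. At least 3 members were found in 3.38% (2.36 to 4.67, exact binomial) of 1036 fibroblasts of WT_LW and in 6.41% (5.51 to 7.41) of 2668 of TLR9agonist_LW, with 110 and 150 cells left out. The unthinned shares were 44.9% and 62.9%. In C1q-high macrophages the thinned shares were 14.9% (12.5 to 17.4) of 835 cells and 31.1% (27.4 to 34.9) of 599, and the unthinned ones 70.0% and 72.5%, at median depths of 9347.5 and 7462.0 UMIs. In T and NK cells the thinned shares were 5.23% (4.51 to 6.04) of 3401 cells and 1.95% (1.52 to 2.45) of 3598, and the unthinned ones 31.2% and 15.3%. In the T cell subsets they were 1.42% and 1.28% in γδ T17-like cells, 5.76% and 2.76% in regulatory T cells, 10.1% and 5.61% in CD8 T cells, and 4.60% and 2.18% in CD4 helper T cells. The γδ T17-like cells, with low shares in both libraries, were 430 cells of the class in WT_LW and 1252 in TLR9agonist_LW. These intervals treat cells as draws from 1 library and say nothing of the spread between libraries. Among 50 Langerhans-like cells of TLR9agonist_LW there was none, against 6.82% (3.16 to 12.5) of 132 in WT_LW. A limit of 3 cells of the 50 allows up to 6%, and the exact binomial interval up to 7.11%, which takes in the WT_LW share. Blood endothelial cells were highest, at 36.3% and 38.7%, and keratinocytes, which have few of these genes, give the lowest shares of any class, 0.969% and 0.245%.

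**Figure D4:**
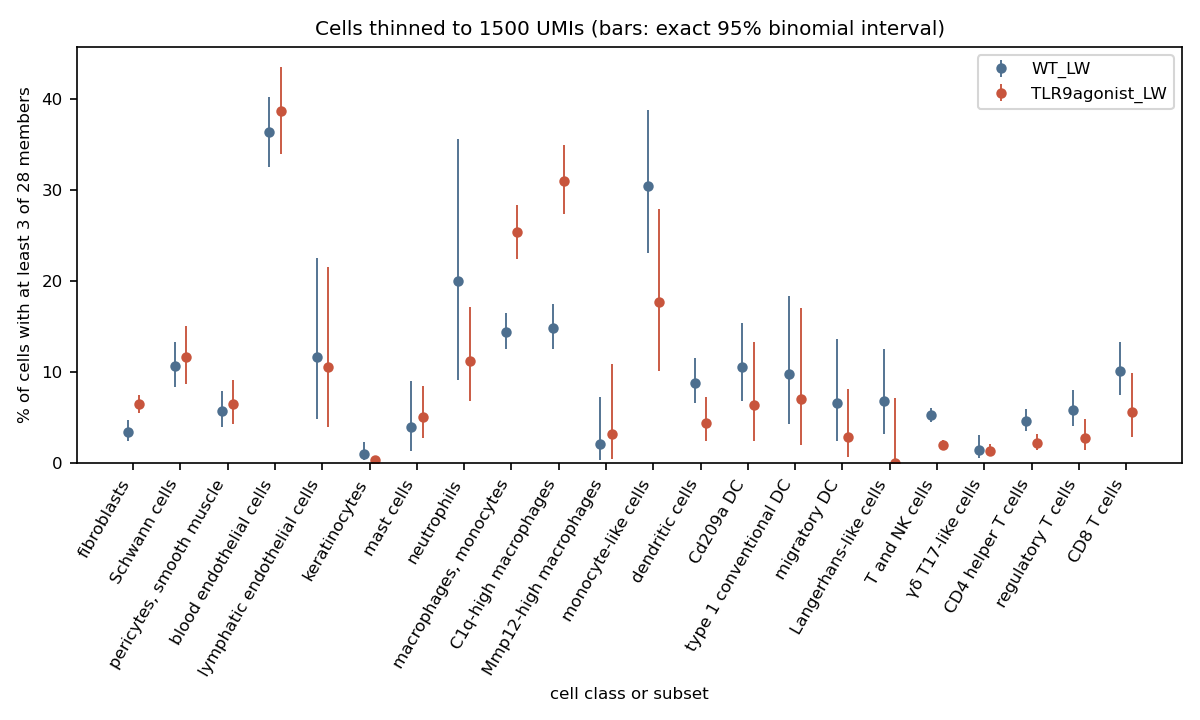
Share of cells with at least 3 of 28 members (y axis, %) after thinning to 1500 UMIs, in each cell class and subset (x axis), with WT_LW in blue, TLR9agonist_LW in red and exact 95% binomial intervals over cells. The shares were 3.38% and 6.41% in fibroblasts, 14.9% and 31.1% in C1q-high macrophages, 5.23% and 1.95% in T and NK cells and 36.3% and 38.7% in blood endothelial cells.

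**Figure D5:**
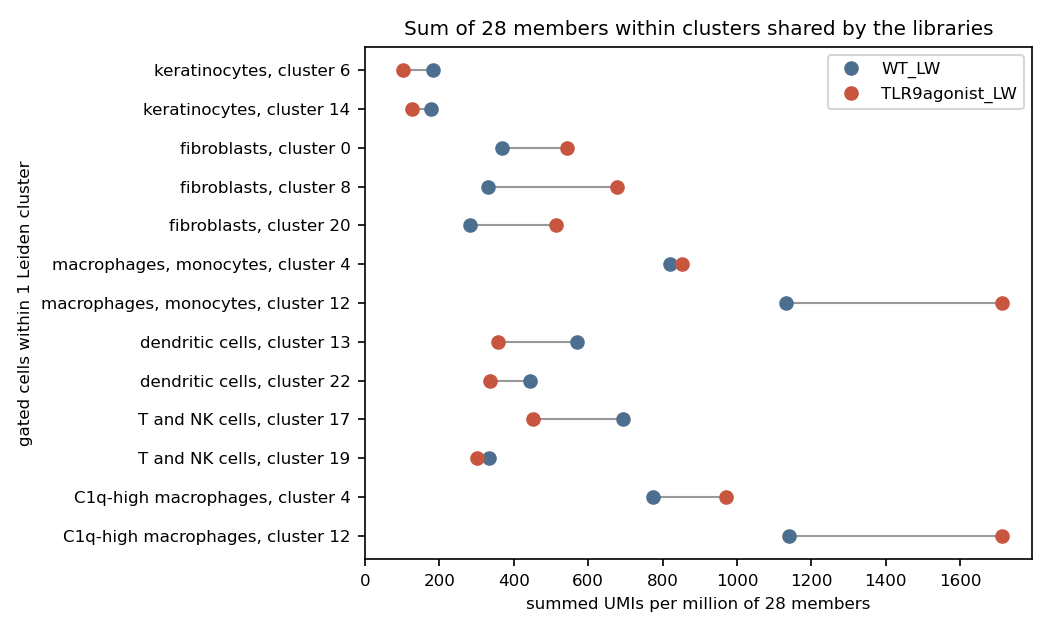
Summed level of 28 members (x axis, CPM) in the gated cells of a class that lie in 1 cluster (y axis), for WT_LW in blue and TLR9agonist_LW in red, joined by a line, for C1q-high macrophages and the classes that lie in 2 or more clusters with cells of both libraries. The 3 fibroblast clusters are all higher in TLR9agonist_LW, while of the macrophage clusters number 12 is higher (1133 and 1713) and number 4 nearly level (821 and 853).

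Of 20 interferon ligand genes, 14 had no UMI in any kept cell and 6 had at least 1, all of them rare. Ifnb1, which encodes interferon beta, had 27 UMIs in 6 cells of WT_LW, of which 22 were in a single cell, and 107 UMIs in 36 cells of TLR9agonist_LW. Fibroblasts held none of it in WT_LW (0 of 1146 cells, which allows a share of cells with a UMI of up to 0.262%, or 3 cells) and 42 UMIs in 15 of 2818 cells in TLR9agonist_LW, with 12 of the 42 in 1 cell. Set against an assumed 3 UMIs over the WT_LW fibroblasts, that level would be 6.69-fold higher. This is no lower bound, since the UMIs of Ifnb1 were clustered in single cells. Macrophages and monocytes held 23 UMIs in 2 of 1325 cells and 28 UMIs in 9 of 907 cells. The 9 macrophages of TLR9agonist_LW with Ifnb1 had between 1167 and 5564 CPM of the 28 members, with a median of 3373, beside a median of 823 in the 898 macrophages without it. The 15 fibroblasts with Ifnb1 had a median of 463, beside 373 in the other 2803. Ifnk had 8 and 15 UMIs and Ifnz 5 and 12, and no interferon alpha gene had more than 1. Tlr9 itself had 36 UMIs in WT_LW and 39 in TLR9agonist_LW, mostly in macrophages (19 and 22).

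The receptor and its kinases differed less than the leading members in fibroblasts. In fibroblasts the receptor chains Ifnar1 (46.1 and 30.9) and Ifnar2 (59.8 and 73.6) and the kinases Jak1 (182 and 149) and Tyk2 (7.18 and 4.93) were all within 2-fold. Tyk2 was lower over all kept cells (-1.10) and at least 2-fold lower in keratinocytes (-1.55), pericytes (-1.64), blood endothelial cells (-1.60) and Schwann cells (-1.38). Of 18 genes that lead to interferon, such as sensors, adaptors and interferon regulatory factors, 16 were counted in fibroblasts and 1 was at least 2-fold higher (4.15% of all genes were). It was Irf1, at 96.1 and 286 (1.57). In C1q-high macrophages Tlr3 was the 1 of 17 (4.24 and 8.62, where 3.35% of all genes were), and Unc93b1, which carries TLR9 to endosomes, stood at 359 and 414. Of 14 genes that lean towards interferon gamma, 4 of 13 counted were at least 2-fold higher in fibroblasts (against the same 4.15%), Cxcl9 (43.8 and 124), Cxcl10 (378 and 863), Irgm1 (11.4 and 23.1) and Iigp1 (22.9 and 46.2), and none was at least 2-fold lower. Cxcl10 stood at 289 and 979 in blood endothelial cells. Of 8 negative regulators, 7 were counted in fibroblasts, where Isg20, an antiviral exonuclease grouped with them, was the 1 at least 2-fold higher (24.5 and 58.8), and 7 in T and NK cells, where Nlrc5, Ptpn6 and Socs1 were at least 2-fold lower (11.3% of all genes were).

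Measures that moved with the libraries in many classes stand beside all of these values. Over all kept cells Hspa1a had 993 CPM in WT_LW and 2539 in TLR9agonist_LW and Hspa1b 873 and 2865, both heat shock genes that dissociation raises, while Fos had 1323 and 766. Summed neutrophil markers in T and NK cells were 90.0 and 1688, in fibroblasts 62.1 and 850.3 and in macrophages 141 and 1088. In keratinocytes they were 2975 and 16398, and which cells made this RNA was not tested. With 1 library per group, the agonist, the mice and the preparation of the cells cannot be told apart.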

How the data were processed

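Single-cell RNA was measured in 2 libraries, and the authors deposited 1 matrix of raw UMI counts per library, which the file headers credit to Cell Ranger 4.0.0. The submitters' processing notes also name fastp, Seurat and the mm9 build. Whether the kit was the v2 or v3 version is not given in the sources used here, and no normalised values were used. Cells were kept from 500 UMIs and 300 genes upwards, with no more than 15% of UMIs mitochondrial. A cell entered a class when at least 3 of its markers, and at least 0.25 of the list, were on, and cells whose next class passed 0.5 of the best were left out as mixed (11.4% and 11.8% of kept cells). No doublet caller was run. The gate was set after the detection of the markers was seen.

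Counts were summed per library and class. Ratios have exact conditional binomial intervals, levels exact Poisson intervals and shares Clopper-Pearson intervals, all at 95% and for counting error only, and a share of 0 has 3 counts as its upper limit. With 1 library per group there was no test. All genes with at least 50 UMIs in a class gave the background, and a gene was called at 2-fold. In each class the 3 highest and the 3 lowest members were named, and every member is given over all cells. Leiden clusters were made with scanpy 1.11.5 without the members. The members and the other lists were chosen with earlier results of these data known. The intervals were tried on simulated Poisson counts, which follow the model that they assume. That trial did not cover UMIs clustered in single cells. Python 3.11.15, numpy 2.4.6 and scipy 1.17.1 were used.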

Additional observations from a re-analysis of the deposited data

Results flagged for a closer look

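Median log2 ratios of the members lay on opposite sides of 0 in different cell types. They were 0.64 in fibroblasts and 0.36 in macrophages and monocytes, against -0.66 in keratinocytes, -0.55 in dendritic cells and -0.79 in T and NK cells. Relative to the median gene of each class these were 0.92, 0.57, -0.23, -0.28 and -0.52. The medians over all background genes of each class were -0.27, -0.21, -0.49, -0.33 and -0.29, in the same order. In keratinocytes 5 of 22 members were above 0, where 19.1% of all genes were. At least 2-fold lower there were 4 of the 22, where 17% of all genes were. By these shares the keratinocyte members were not set apart from genes at large. The differences between cell types were not tested, since each group has 1 library.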

How the results depend on the processing

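The alternatives were a stricter cell filter, centring on the median gene, equal weight per cell and a minimum of 10 UMIs. Leiden clusters in place of the gate, mixed cells kept, and cells thinned to 1500 UMIs were the others. Of 117 class medians and counts, 109 stayed within a band around the reported median or within 1.5 times the reported count. The band ran from the median lower to the median upper bound of the members' own intervals, and is no interval of the median. It was wide, from -1.21 to 0.25 in neutrophils, so a median could change sign and still stay within it. Of 105 medians, 98 kept their sign and 7 did not, in 4 classes. The alternatives for the subsets (C1q-high, monocyte-like, Langerhans-like, γδ T17-like and CD4 helper T cells) and the 2-fold counts were chosen after seeing the data. The median ranged from 0.41 to 0.92 in fibroblasts, from 0.23 to 0.57 in macrophages and monocytes, and from -0.87 to -0.52 in T and NK cells. Centring on the median gene moved it to -0.095 over all kept cells, -0.23 in keratinocytes and 0.43 in pericytes, and turned it to 0.11 in blood endothelial cells. Thinning moved Langerhans-like cells to -2.42, with 1 member left. Members at least 2-fold higher in fibroblasts numbered 6 with thinning and 6 with equal weight per cell, against 11. Members at least 2-fold lower in T and NK cells numbered 4 with centring, against 10. Over the named members, 498 of 574 values stayed, 72 moved and 4 turned: Oas3 in keratinocytes (0.055, equal weight per cell), Ly6e in fibroblasts (0.12, centred), Eif2ak2 in macrophages (0.25, thinned) and Oasl2 in T and NK cells (-0.23, thinned). The cause was not tested. The sign also changed in mast cells (-0.50 to 0.42), neutrophils (-1.06 to 0.10) and pericytes (-0.10 to 0.43). No paired analysis was possible because each group has 1 library, and for the same reason no library could be left out. Depth limits the small classes, where few members reached 50 UMIs.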

Other observations

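Near relatives of some members, with which they share sequence, were counted as genes of their own. Ifit3b had 318 UMIs in WT_LW and 500 in TLR9agonist_LW, beside 1094 and 2052 for Ifit3. Ifit1bl1 went the other way from Ifit1, with 136 and 31, beside 1529 and 2213 for Ifit1. Oas1g had 129 and 152, Trim30d 1265 and 1168, Ifitm2 59913 and 73306, and Ifitm1 19682 and 19837. How reads shared by such copies were assigned was not examined here. The values of Ifit1, Ifit3, Oas1a, Trim30a and Ifitm3 are uncertain to that extent.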
